A study of Mus musculus with 6 samples.

Results

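The 10 genes described here are markers of tuft cells: Avil, Sh2d6, Sh2d7, Pou2f3, Trpm5, Dclk1, Gfi1b, Alox5ap, Ltc4s and Bmx. They were taken by name from a table of 55487 genes, and all 10 were found in it. The list was drawn up because Avil and Sh2d6 were already known to be much higher in 1 of the 2 groups of this experiment. Their values are therefore given as a description, and the question is what the other members and the wider tuft cell program did in the same libraries.

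The RNA came from RM-1, a mouse prostate carcinoma line grown in culture. Cells carried either a lentivirus for overexpression of Bhlhe22, which encodes a basic helix-loop-helix transcription factor, or a blank vector lentivirus as the control, with 3 libraries in each group. No other treatment, time or allele is listed for either group, and no source used here gives the promoter of the virus or says whether the cells were pools or clones. The labels do not say that the replicates were separate cultures, so the spread between them may be technical.

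Tuft cells are rare chemosensory cells of the gut, airway and other lined organs. They sense luminal signals through a taste-type cascade that ends in the cation channel TRPM5, and answer with interleukin, eicosanoid and acetylcholine output. The transcription factor POU2F3 is required for the lineage, and GFI1B marks it. Advillin (Avil) and DCLK1 are used to stain these cells, and SH2D6, SH2D7 and BMX are signaling proteins enriched in them. Several of these genes are also used elsewhere: Avil in sensory neurons, Dclk1 in neurons and tumor cells, and Alox5ap and Ltc4s in leukocytes.

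The libraries held 15464709 to 25129552 counts. Bhlhe22 itself had no count in any vector library and 684 ± 99.9 CPM (SD, n = 3) in the Bhlhe22 libraries. CPM are counts per 1000000 counts of the library, here with its size scaled for composition (TMM). Of 14663 genes with enough counts to be tested, 1520 (10.4%) were higher and 1361 (9.28%) lower in Bhlhe22 cells, at an adjusted p under 0.05 in edgeR's quasi-likelihood test with Benjamini-Hochberg adjustment over all tested genes. A gene past that threshold is referred to as called. The median log2 fold change of all tested genes was 0.01. Bhlhe22 replicate 1 stood apart from the other libraries of its group: the chi-square per degree of freedom was 35.7 and 47.3 against replicates 2 and 3, compared with 13.6 between those 2 and 10.8 to 11.7 among the vector libraries. Without it, 2345 genes were higher and 2337 lower, so counts are also given without it.

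Among the 10 tuft cell markers, Avil and Sh2d6 were higher in Bhlhe22 cells, Dclk1 was lower, and the other 7 did not reach the count filter. The 3 that reached it were all called, beside 19.6% of all tested genes, but 2 of them are the genes for which the list was made, so nothing is read from that count. Sh2d7, Gfi1b and Bmx had no count in any of the 6 libraries. Pou2f3, Trpm5, Alox5ap and Ltc4s had at most 6 counts in a library. In bulk RNA such as this, fewer cells of a type and less RNA per cell cannot be told apart.

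The windows around the annotated starts of Avil and Sh2d6 are printed because these are the members that were higher together. They are RefSeq promoter windows on GRCm38.p6, each of 300 bases (250 before the start and 50 after it), 5′ to 3′ on the strand of the gene. Capitals mark E-boxes (CANNTG, the core motif bound by basic helix-loop-helix factors, found on both strands since it reads as the same pattern on each).

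Avil, chr10:127000459-127000758, plus strand: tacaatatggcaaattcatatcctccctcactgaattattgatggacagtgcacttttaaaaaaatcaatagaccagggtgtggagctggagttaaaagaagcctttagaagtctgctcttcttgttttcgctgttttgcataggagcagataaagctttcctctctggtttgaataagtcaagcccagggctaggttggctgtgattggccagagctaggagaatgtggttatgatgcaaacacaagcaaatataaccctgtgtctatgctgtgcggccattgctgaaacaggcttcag

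Sh2d6, chr6:72519987-72520286, minus strand: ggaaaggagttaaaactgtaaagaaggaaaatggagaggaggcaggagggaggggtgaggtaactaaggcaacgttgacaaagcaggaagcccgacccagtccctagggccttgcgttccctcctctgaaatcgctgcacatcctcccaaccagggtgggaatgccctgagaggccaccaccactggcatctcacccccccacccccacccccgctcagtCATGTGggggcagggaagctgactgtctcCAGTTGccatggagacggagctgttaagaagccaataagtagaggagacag

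The Avil window held no E-box and had a GC content of 43.0%. In the Sh2d6 window there were 2, CATGTG at 30 bases before the start (position -30) and CAGTTG at position -1, and the GC content was 57.3%. At least 1 E-box was found in 72.31% of 32851 such windows, and at least 2 in 39.64%, so such a match is common. The octamer ATGCAAAT, the motif of POU2 factors, was on neither strand of either window. It was found in 570 of all windows (1.74%). These matches are a description of the letters in these windows only, and the Sh2d6 gene model extends further upstream than this start. Windows were found for 8 of the 10 members, not for Pou2f3 and Alox5ap.

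Avil encodes advillin, an actin-bundling protein of the villin and gelsolin family. The gene (ENSMUSG00000025432) lies on the plus strand at chr10:127000709-127020994 (GRCm38) and has 20 merged exons. It had 26, 26 and 32 counts in vector replicates 1 to 3, and 367, 417 and 504 in Bhlhe22 replicates 1 to 3. In CPM these were 1.44, 1.26 and 1.5 against 24.1, 21.5 and 20.1. The lowest Bhlhe22 library was far above the highest vector library. Means were 1.40 ± 0.123 and 21.9 ± 2.04 CPM (SD, n = 3 each), a 15.6-fold difference, and the fitted log2 fold change was 3.96 (SE 0.14). Exons of the opposite-strand neighbor Tsfm overlap 4.86% of its exon length. Tsfm itself had a log2 fold change of -0.02.

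Sh2d6 encodes a small adaptor protein with an SH2 domain, related to the B cell linker BLNK. The gene (ENSMUSG00000052631) lies on the minus strand at chr6:72513641-72521707, with 17 merged exons and no exon shared with another gene. Counts were 19, 20 and 15 in vector replicates 1 to 3, and 311, 362 and 450 in the Bhlhe22 replicates. Again the groups were wide apart, with 1.05, 0.971 and 0.702 CPM against 20.4, 18.7 and 17.9 CPM. The means were 0.909 ± 0.184 and 19.0 ± 1.29 CPM (SD, n = 3 each), a 20.9-fold difference, and the fitted log2 fold change was 4.39 (SE 0.17). Ordered by log2 fold change from the highest, Sh2d6 was at rank 11 and Avil at rank 17 of the 14663 tested genes. For both genes Bhlhe22 replicate 1, the library that stands apart, had the highest CPM, and leaving out any 1 library gave log2 fold changes between 3.88 and 4.02 for Avil and between 4.22 and 4.50 for Sh2d6.

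Dclk1 encodes a microtubule-associated kinase of the doublecortin family and is the most widely used tuft cell marker in mouse gut. It moved the other way. The gene (ENSMUSG00000027797, plus strand, chr3:55242364-55539068) had 388, 490 and 479 counts in vector replicates 1 to 3, and 218, 264 and 438 in the Bhlhe22 replicates. Scaled for depth these were 21.5, 23.8 and 22.4 CPM against 14.3, 13.6 and 17.4 CPM, so the groups did not overlap, as was so for 40.8% of all tested genes. The means of 22.6 ± 1.15 and 15.1 ± 2.03 CPM (SD, n = 3 each) put the Bhlhe22 cells 32.9% lower (edgeR adjusted p = 0.016 for a log2 fold change of -0.57, SE 0.12). It missed the threshold when vector replicate 1, 2 or 3 was left out (adjusted p = 0.053, 0.070 and 0.062) and when Bhlhe22 replicate 2 was (0.059). Dclk1 stayed called without Bhlhe22 replicate 1 (0.013) and without Bhlhe22 replicate 3 (0.010). The fold change stayed between -0.69 and -0.50 in these fits.

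Between genes, levels were compared as CPM per kilobase of merged exon. In vector cells Dclk1 was highest of the 3 at 1.48 ± 0.0755, followed by Sh2d6 at 0.538 ± 0.109 and Avil at 0.412 ± 0.0361 (SD, n = 3 each). The ranges of Sh2d6 and Avil overlapped there. In Bhlhe22 cells the order on the same scale was Sh2d6 at 11.3 ± 0.761, Avil at 6.45 ± 0.602 and Dclk1 at 0.989 ± 0.133, with no overlap between neighbors in that order. Of all tested genes, 8.61% lay below Avil in vector cells and 50% in Bhlhe22 cells. For Sh2d6 these shares were 11% and 64.8%, and for Dclk1 21.9% and 17.2%. In Bhlhe22 cells Avil and Sh2d6 were therefore at mid-range levels for a tested gene, while Krt18, a keratin of simple epithelia that is also strong in tuft cells, was at 463 ± 55.7 CPM per kilobase.

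The order of Avil and Sh2d6 depended on the length used. The authors' deposited FPKM put Avil (0.341 in vector and 5.26 in Bhlhe22 cells, means of the deposited values) above Sh2d6 (0.200 and 4.12). The length behind those FPKM was 4127 bases for Avil and 4573 for Sh2d6, against 3398 and 1690 bases of merged exon. Among 13577 genes with a summed count of 100 or more, 13263 (97.7%) fitted a simple rule: the length behind the FPKM equaled, within 0.5%, the summed length of all distinct annotated exons, in which overlapping exons count more than once. Fold changes within a gene are not touched by this.

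**Figure D1:**
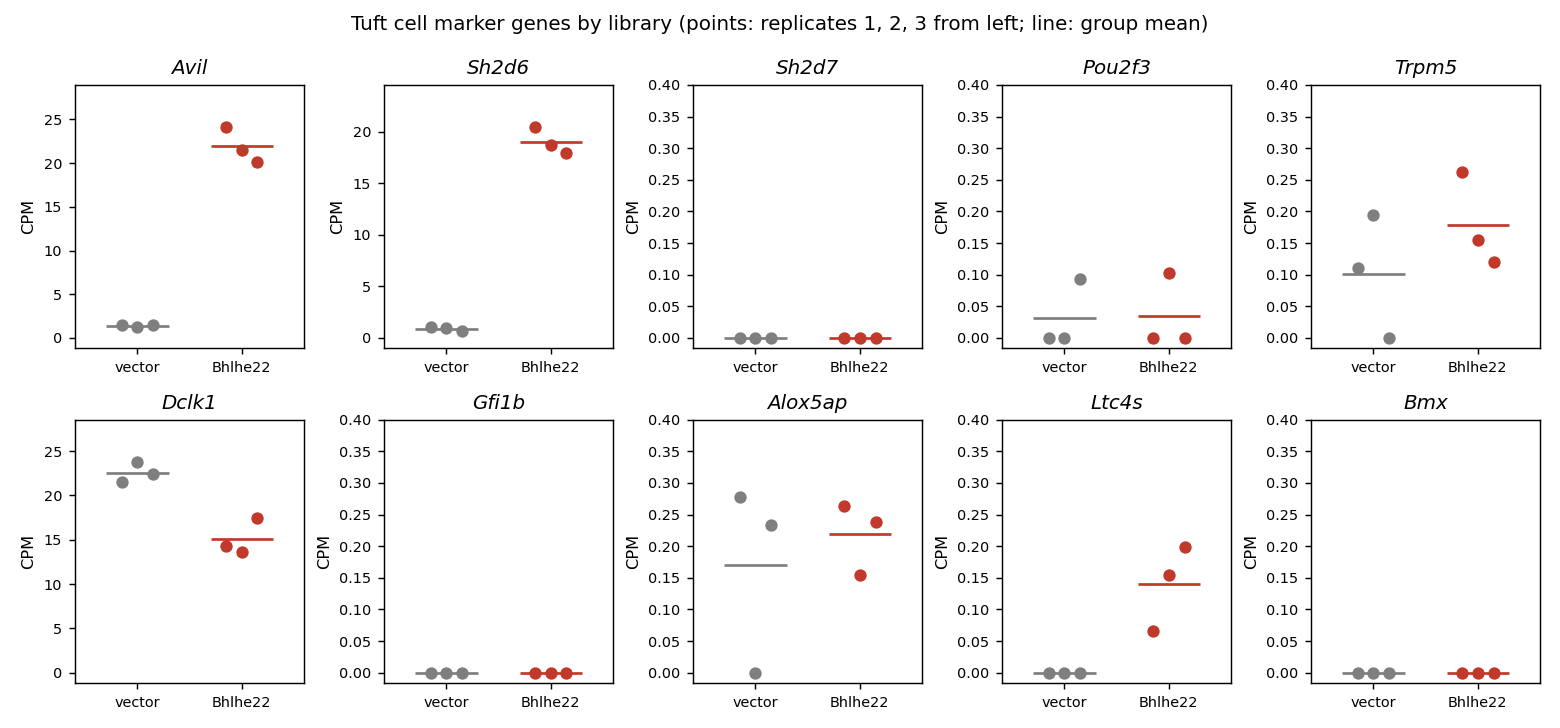
CPM (y axis, linear, a scale of its own for each gene) of the 10 tuft cell markers in the 3 vector (grey) and 3 Bhlhe22 (red) libraries, with each point a library, in replicate order from the left, and the line the group mean. Avil and Sh2d6 are near 1 CPM in vector cells and near 20 CPM in Bhlhe22 cells, Dclk1 falls from 22.6 to 15.1 CPM, and the other 7 genes are at or near 0 in both groups.

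The transcription factor genes among the markers were at or near 0. Pou2f3, the POU-domain factor that tuft cells require, had 0, 0 and 2 counts in vector replicates 1 to 3 and 0, 2 and 0 in the Bhlhe22 replicates. Gfi1b, a zinc-finger repressor, had no count in any library, which allows a level of up to 0.050 CPM over the vector group and 0.0503 CPM over the Bhlhe22 group (3 counts over each group, counting error only).

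Trpm5, the cation channel at the end of the taste-type cascade, had 2, 4 and 0 counts in vector replicates and 4, 3 and 3 in Bhlhe22 replicates. Both groups were thus at the edge of detection, and in a fit with no filter on counts, which called 9.71% of its genes, Trpm5 was not called (edgeR adjusted p = 0.67). Sh2d7, a relative of Sh2d6, and Bmx, a TEC-family tyrosine kinase, had no count in any library and share the upper limits given for Gfi1b. Sh2d7 can be set beside Sh2d6 directly: the former stayed at 0 in the libraries where the latter reached 450 counts.

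Alox5ap and Ltc4s encode the membrane proteins with which leukotrienes are made from arachidonic acid: ALOX5AP presents the substrate to the lipoxygenase ALOX5, and LTC4S joins the product to glutathione. Alox5ap had 5, 0 and 5 counts in vector replicates and 4, 3 and 6 in Bhlhe22 replicates, with the groups overlapping (edgeR with no filter, adjusted p = 0.84). Ltc4s had no count in the vector libraries and 1, 3 and 5 counts in the Bhlhe22 libraries. The groups do not overlap, but without the filter the difference was not called (edgeR adjusted p = 0.099), and 26.4% of its exon length is shared with Gm26542 on the opposite strand. No source used here says if the counting was stranded.

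Outside the 10 markers, 48 other tuft cell genes were in the table, in lists for the taste-type cascade, the effectors and the transcriptional regulators. Of these, 12 had no count in any library, 15 had some counts but did not pass the filter, and 21 were tested. In the Bhlhe22 cells 5 of the 21 were called higher and 4 lower, with a median log2 fold change of -0.01 beside 0.01 for all tested genes. Mycl, among the 5, passed the count filter only through the Bhlhe22 libraries, so it could not have been called lower. The called share of 42.9% stands beside 19.6% of all tested genes, and the calls went in both directions. These lists were chosen with earlier results of the same data known, so nothing is read from that share. Without Bhlhe22 replicate 1 there were 6 higher and 4 lower, beside 2345 higher and 2337 lower of all 14945 genes tested in that fit. Leaving out other libraries gave as few as 2 higher (without vector replicate 1) and 1 lower. The summed level of the 48 genes was 1639 to 1711 CPM in vector libraries and 1664 to 1771 CPM in Bhlhe22 libraries, so those ranges overlap. Abundant genes such as Krt18 (mean 665 CPM in each group) make up much of that sum, so it says little about genes at low levels.

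Few genes of the taste-type cascade had enough counts to be tested. Gnat3 (gustducin), Gnb3, Rgs13, and the metabolite receptors Sucnr1 and Ffar3 had no count in any library, and 5 of the 14 cascade genes were tested. Itpr2, a calcium release channel of the endoplasmic reticulum, was higher: 44.9, 40.7 and 42.8 CPM in vector replicates 1 to 3 against 58.4, 96.9 and 91.1 CPM (edgeR adjusted p = 0.013 for a log2 fold change of 0.94, SE 0.18). Bhlhe22 replicate 1 was the lowest of its group, still above each vector library. Plcg2, a phospholipase that produces the ligand of these channels, was lower, at 50.7 ± 3.14 against 36.9 ± 2.84 CPM (log2 fold change -0.46, adjusted p = 0.015). The related channel Itpr3 (log2 fold change -0.21), the cation channel Trpm4 (-0.05) and the taste receptor subunit Tas1r3 (0.78, adjusted p = 0.26, under 1.4 CPM in each library) were not called.

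Among 22 effector genes, 5 had no count, Il25 and Chat among them. These encode the cytokine by which tuft cells alert innate lymphoid cells and the enzyme that makes acetylcholine. Atp2a3, which encodes the calcium pump SERCA3 and is strong in tuft cells and blood cells, had the clearest difference of the effectors. Its CPM were 3.44, 3.06 and 3.18 in vector replicates and 18.9, 19.9 and 21.6 in Bhlhe22 replicates. The groups were far apart, with means of 3.23 ± 0.192 and 20.2 ± 1.37 CPM (SD, n = 3 each), a 6.25-fold difference (edgeR adjusted p = 5.0e-05 for a log2 fold change of 2.64, SE 0.11). The call held in each fit with a library left out. Ptgs1, the constitutive cyclooxygenase, rose from 200.1 ± 5.77 to 267 ± 18.3 CPM (log2 fold change 0.41, adjusted p = 0.0094).

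The effectors called lower were Ptpn6, Il4ra and Fyb. Ptpn6, the phosphatase SHP-1, fell from 28.5 ± 1.63 to 18.9 ± 1.28 CPM (log2 fold change -0.59, edgeR adjusted p = 0.0056). The cytokine receptor chain Il4ra was at 28.9 ± 0.914 against 22.5 ± 1.53 CPM (-0.36, adjusted p = 0.028), and the adaptor Fyb at 8.38 ± 0.131 against 5.56 ± 0.934 CPM (-0.60, adjusted p = 0.028). Krt18 (log2 fold change -0.00) and the receptor chain Il13ra1 (-0.01) were not called.

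Of 12 regulators, 7 were tested, and Hmx3 and Mycl were higher. Hmx3, a homeodomain factor, was at 13.5, 14 and 13.2 CPM in vector replicates and 17.2, 23.6 and 22.5 in Bhlhe22 replicates (log2 fold change 0.64, edgeR adjusted p = 0.016). Its paralog Hmx2 was at 9.66 ± 0.662 against 7.30 ± 0.661 CPM (-0.40, adjusted p = 0.057), which missed the threshold. Mycl, a MYC family factor, had 0, 3 and 2 counts in vector replicates and 12, 16 and 37 in Bhlhe22 replicates, so it went from the edge of detection to about 1 CPM (edgeR adjusted p = 0.0084). The fitted log2 fold change of 3.57 depends on the prior count, since vector cells had so few. Only the Bhlhe22 libraries brought Mycl past the count filter, so the direction of its call was fixed in advance. The POU2F3 coactivator genes 1810046K07Rik and Colca2 had no count in any library. Sox9 (log2 fold change 0.08), Sox4 (0.15), Runx1 (0.04) and Etv1 (-0.63, edgeR adjusted p = 0.35) were not called. Sox4 was higher without Bhlhe22 replicate 1 (0.29, adjusted p = 0.0083).

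Of these 9 called genes, Atp2a3, Mycl and Ptpn6 kept their call whichever library was left out. Ptgs1 lost it without vector replicate 1 (edgeR adjusted p = 0.059), and Plcg2 without vector replicate 2 or 3 (0.062 and 0.067). Itpr2 lost it without vector replicate 1, 2 or 3 (0.053, 0.060 and 0.058). For Hmx3 it was lost without any of the vector replicates (0.073, 0.060 and 0.072) or Bhlhe22 replicate 2 (0.058), and for Il4ra without any of them (0.089, 0.096 and 0.11) or Bhlhe22 replicate 2 (0.10). Among these fits Fyb held its call only without Bhlhe22 replicate 1. With no count filter Il4ra also missed the threshold (0.059), while Hmx2 was called lower with upper quartile scaling (0.048), with library size alone (0.048) and on the log2(FPKM + 1) scale (0.048).

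**Figure D2:**
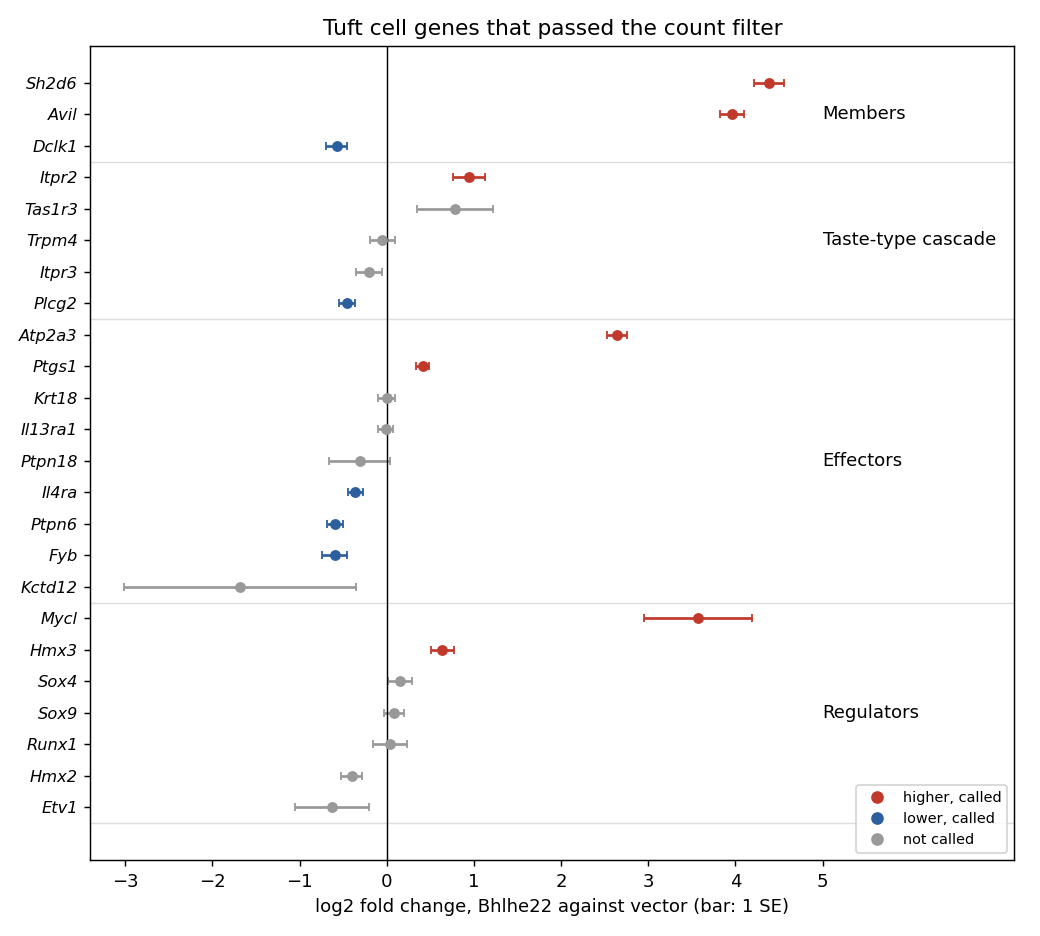
Fitted log2 fold change of Bhlhe22 against vector cells (x axis, bars 1 SE) for each tuft cell gene that passed the count filter, grouped by role, with red and blue points called higher and lower and grey points not called. Avil (3.96), Sh2d6 (4.39), Mycl (3.57) and Atp2a3 (2.64) lie far to the right, and the remaining genes are within 1.7 of 0.

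Close relatives of the markers were compared next, family by family, beside 10.4% of all tested genes called higher and 9.28% lower. Avil and Sh2d6 were chosen because they were higher, so nothing is read from family counts that include them. In the villin and gelsolin family 6 of 8 genes were tested, and Avil and Vill were higher. Vill, the villin-like gene, was at 30.3, 29.7 and 33.1 CPM in vector replicates and 47.6, 48.7 and 45 CPM in Bhlhe22 replicates, with no overlap (edgeR adjusted p = 0.0032 for a log2 fold change of 0.60, SE 0.08). Gsn (0.17), Capg (0.09), Svil (-0.10) and Flii (-0.15) were not called. Vil1, the villin of brush borders and tuft cells, did not pass the filter. Per kilobase, gelsolin (Gsn) was at 134 ± 8.72 CPM and Avil at 6.45 ± 0.602 CPM in Bhlhe22 cells (SD, n = 3 each), so advillin transcripts were a small share of this family.

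Of 13 SH2 adaptor genes 5 were tested. Apart from Sh2d6, chosen because it was higher, each tested gene had a negative log2 fold change. Sh2d6 was higher, while Blnk, the B cell linker, was lower at 46.0 ± 1.66 against 35.2 ± 0.812 CPM (log2 fold change -0.38, edgeR adjusted p = 0.013), and Sh2d3c was lower at 9.35 ± 1.24 against 6.69 ± 0.447 CPM (-0.48, adjusted p = 0.048). Blnk lost its call without vector replicate 1 (0.071), vector replicate 3 (0.052) or Bhlhe22 replicate 2 (0.057). Sh2d3c kept its call in 1 of 6 such fits, the one without Bhlhe22 replicate 1, and also missed the threshold in limma-voom (0.051), with no count filter (0.072) and on the log2(FPKM + 1) scale (0.057). Sh2d5 (-0.49, adjusted p = 0.084) and Lcp2 (-0.17) were not called, although DESeq2 called Sh2d5 lower (0.044).

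Among the relatives of the other markers few were called. In the doublecortin family Dclk2 was at 37.7 ± 3.97 against 36.2 ± 7.2 CPM (log2 fold change -0.06, edgeR adjusted p = 0.85), so the called difference was in Dclk1, and a difference between the 2 genes was not tested. Of the POU2 factors only Pou2f1, which is broadly expressed, was tested, and it was not called (-0.25, adjusted p = 0.43). None of the 4 tested TRPM channels was called by edgeR, at an unadjusted p under 0.05 (0 genes) or by DESeq2 (0 genes, where DESeq2 called 23% of all tested genes). Of the TEC kinases 2 were tested with 0 called by edgeR or DESeq2. Tec had a log2 fold change of 0.03, and Txk, with an unadjusted p under 0.05, had -0.62 (adjusted p = 0.053, and called at 0.048 with upper quartile scaling, 0.047 with library size alone and 0.048 with a filter of 1 CPM in 3 libraries). Hdac1, a corepressor of GFI1 proteins, was lower (-0.26, adjusted p = 0.040) with the call lost in each fit without 1 library except that without Bhlhe22 replicate 1, and also with no count filter (0.084).

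**Figure D3:**
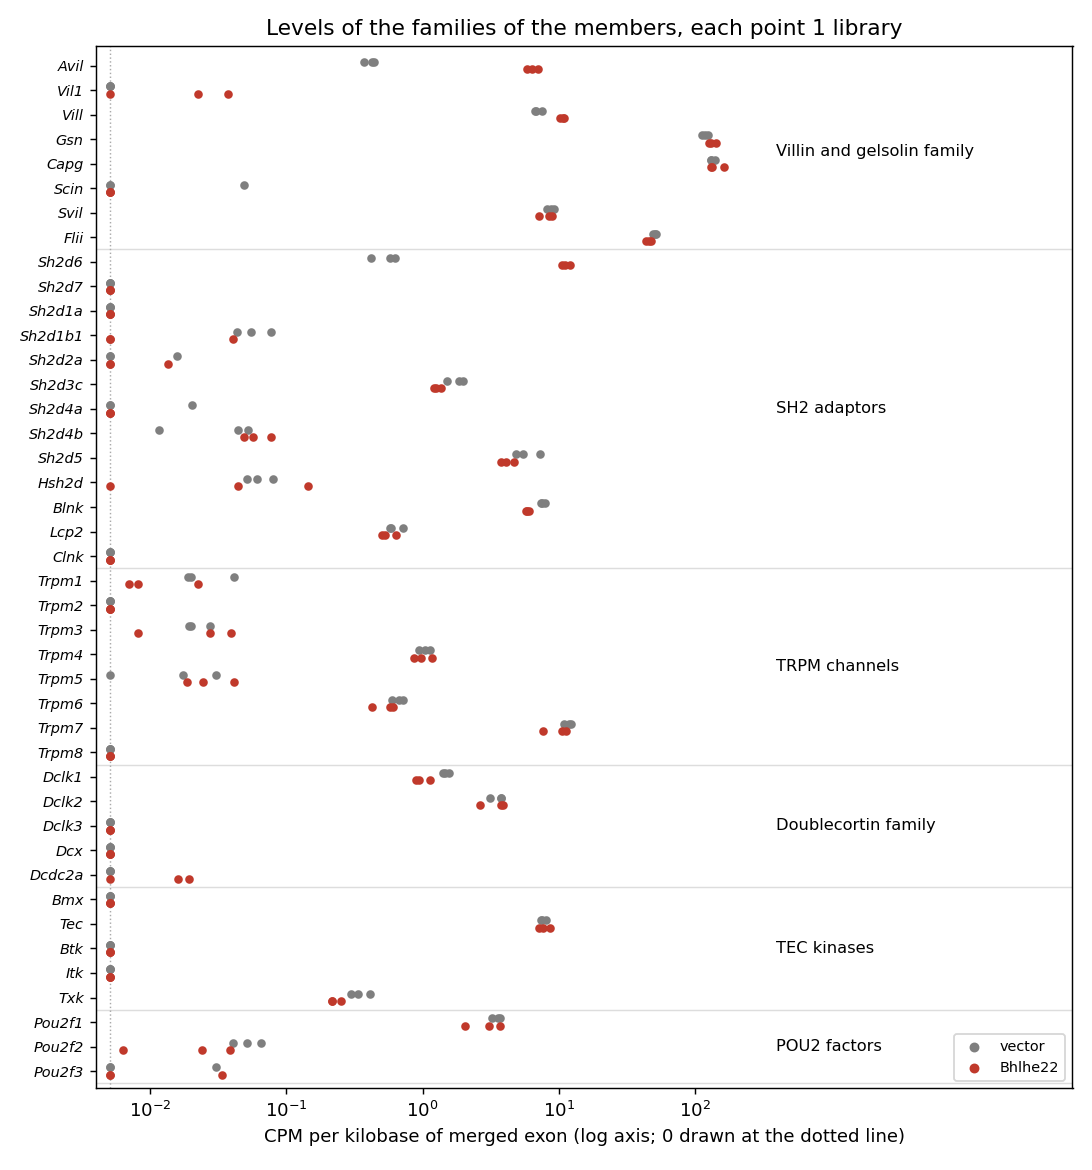
Level in CPM per kilobase of merged exon (x axis, log scale, with 0 drawn at the dotted line) of the families to which the markers belong, with each point a library, grey for vector and red for Bhlhe22. Among the genes that passed the count filter, Avil and Sh2d6 have red points furthest to the right of the grey ones, while Gsn and Capg are above 100 in both groups.

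The leukotriene pathway, to which Alox5ap and Ltc4s belong, had 18 genes in the table. Of these 6 were tested and 2 were called higher, beside 10.4% of all tested genes. Without Bhlhe22 replicate 1, 4 of the 6 were higher, as were 2345 of all 14945 genes tested in that fit. Abcc4, a transporter that exports eicosanoids, had 105, 106 and 106 CPM in vector replicates and 157, 204 and 207 CPM in Bhlhe22 replicates (edgeR adjusted p = 0.0027 for a log2 fold change of 0.84, SE 0.11). Pla2g4a, the phospholipase that releases arachidonic acid, was at 46.3 ± 1.39 against 55.4 ± 1.18 CPM (0.26, adjusted p = 0.044). Among the fits that left out a library its call was kept only without Bhlhe22 replicate 1, and Pla2g4a missed the threshold with no count filter (0.075), on the log2(FPKM + 1) scale (0.056), and when scaled by library size alone (0.057) or by the upper quartile (0.054). Mgst2, which can also make leukotriene C4, missed the threshold at 41.1 ± 1.40 against 52.4 ± 6.03 CPM (0.35, adjusted p = 0.051), but DESeq2 called Mgst2 higher (0.025), as did edgeR with a filter of 1 CPM in 3 libraries (0.049), without Bhlhe22 replicate 1 (0.030) or without Bhlhe22 replicate 3 (0.035). Abcc1 was not called (log2 fold change 0.15), but was higher without Bhlhe22 replicate 1 (0.26, edgeR adjusted p = 0.0099). Lta4h had a log2 fold change of 0.01. The receptors Cysltr1, Cysltr2 and Ltb4r1 had no count in any library.

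Lists for other cell types in which the 10 markers are used were read in the same libraries. Of all tested genes, 10.4% were called higher and 9.28% lower. Of 20 sensory neuron genes 7 were tested and 1 was higher: P2rx3, which encodes an ion channel opened by ATP in these neurons, at 1.53 ± 0.553 against 16.8 ± 3.08 CPM (edgeR adjusted p = 3.3e-04 for a log2 fold change of 3.46, SE 0.26). The summed level of the 20 genes was 50.3 to 56.3 CPM in vector libraries and 67.1 to 69.8 CPM in Bhlhe22 libraries. P2rx3 is part of that sum, and its own difference (1.53 against 16.8 CPM) is about as large as that of the sum. The defining genes Ntrk2, Scn10a, Trpv1, Tac1 and Ret had no count. Of 8 neuroendocrine genes 2 were tested. Insm1, a zinc-finger factor, was higher, at 1.38 ± 0.107 against 3.53 ± 0.728 CPM (1.36, adjusted p = 0.0057), while Neurod1 had no count. Ncam1, the other tested gene, was not called, at 4.61 ± 0.959 against 6.45 ± 2.26 CPM per kilobase. Without Bhlhe22 replicate 1 it was called higher (edgeR adjusted p = 0.040), as were 2345 of all 14945 genes tested in that fit. The summed neuroendocrine level was 32.4 to 46.8 against 36.4 to 71.9 CPM, and Ncam1 makes up most of that sum.

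For blood cells, 18 genes were listed, of which 10 had no count and 3 were tested. Itga2b was higher (log2 fold change 0.68, edgeR adjusted p = 0.026), a call lost without vector replicate 1 (0.10), vector replicate 2 (0.098), Bhlhe22 replicate 2 (0.058) or Bhlhe22 replicate 3 (0.070). The summed level was 63.5 to 66.4 CPM in vector and 69.3 to 77.1 CPM in Bhlhe22 libraries. Cd68, a lysosomal protein of macrophages and the most abundant gene of this list, was at 40.9 ± 2.65 against 49.2 ± 4.77 CPM and was not called (log2 fold change 0.27, adjusted p = 0.11). Cd14, the other tested gene, went the other way and was not called. Its level was 11.3 ± 0.325 against 10.3 ± 0.499 CPM per kilobase. With any 1 library left out its log2 fold change was between -0.18 and -0.12. Spi1, Tyrobp, Itgam, Adgre1 and Ms4a2 were at 0. The part of the sensory neuron and blood cell markers in the levels of Avil, Sh2d6 and Atp2a3 was not tested. Of 11 epithelial genes 5 were tested. Krt8 fell from 757 ± 14.5 to 545 ± 34 CPM (-0.47, adjusted p = 0.0047) and Grhl2, a regulator of epithelial identity, from 16.5 ± 1.62 to 10.5 ± 1.04 CPM (-0.66, adjusted p = 0.011), while Krt19 rose (0.40, adjusted p = 0.015), a call lost without vector replicate 1, 2 or 3 (0.065, 0.074 and 0.063). Epcam was low, at 3.99 ± 0.515 against 3.99 ± 0.628 CPM, Cdh1 did not pass the filter and Esrp1 had no count, so keratins were the main epithelial genes seen in this line.

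The genes around Avil and Sh2d6 were examined within 100 kb. Near Avil 11 protein-coding genes lie in that range, of which 10 were tested and 3 were higher, beside 10.4% of all tested genes. Cyp27b1, among the 3, passed the count filter only through the Bhlhe22 libraries, so it could not have been called lower. These 3 are on the right side, at 27.3 to 74.7 kb: Cyp27b1, which activates vitamin D (log2 fold change 1.77, edgeR adjusted p = 0.025, 3 to 6 counts in vector and 10 to 19 in Bhlhe22 libraries), the tetraspanin Tspan31 (0.41, adjusted p = 0.018) and the endoplasmic reticulum lectin Os9 (0.48, adjusted p = 0.017). Tspan31 shares 29.2% of its exon length with Cdk4 on the opposite strand, and Cdk4 had a log2 fold change of -0.08. All 3 lost the call without some libraries: Cyp27b1 when vector replicate 2, vector replicate 3 or Bhlhe22 replicate 2 was left out (0.096, 0.095 and 0.088), Tspan31 without any vector replicate or Bhlhe22 replicate 2 (0.052 to 0.088), and Os9 without any vector replicate (0.055 to 0.079). Without Bhlhe22 replicate 1, 4 of the 10 tested neighbors were higher and 1 was lower, Cdk4 (log2 fold change -0.35, edgeR adjusted p = 0.033). In that fit 2345 of all 14945 tested genes were higher and 2337 lower. The nearest genes did not follow Avil. Tsfm, which overlaps it, had -0.02, and Ctdsp2, 0.7 kb away, had -0.03 with an SE of 0.65, since 1 library in each group was more than 2 times as high as the others (183 CPM in vector replicate 1 and 171 CPM in Bhlhe22 replicate 1).

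Around Sh2d6 all 6 protein-coding genes were tested, and 0 were called by edgeR, at an unadjusted p under 0.05, or by DESeq2. Their log2 fold changes ran from -0.08 (Retsat) to 0.24 (Tgoln1). Without Bhlhe22 replicate 1, Tgoln1 was called higher (0.36, adjusted p = 0.0013). Capg, a gelsolin relative 22.7 kb away, had 0.09. Over all 10 markers, 50 protein-coding genes lay within 100 kb, and of 40 tested 6 were higher and 4 lower, beside 10.4% and 9.28% of all tested genes. The 6 include Cyp27b1, which passed the count filter only through the Bhlhe22 libraries.

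**Figure D4:**
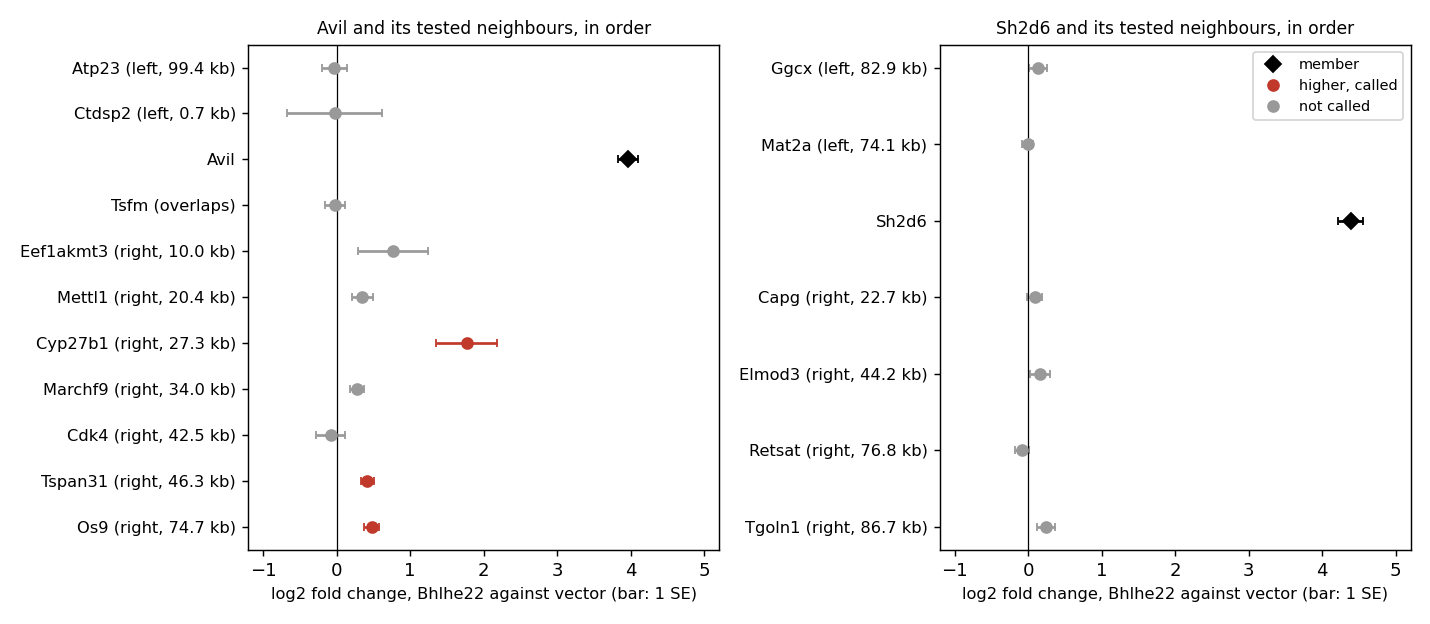
Fitted log2 fold change of Bhlhe22 against vector cells (x axis, bars 1 SE) for Avil and Sh2d6 (black diamonds) and the tested protein-coding genes within 100 kb, in chromosome order from the top, with the gap to the gene in kilobases. Avil (3.96) and Sh2d6 (4.39) stand far from their neighbors, of which Cyp27b1 (1.77) is furthest to the right.

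Genes with the most similar pattern to the called markers were found by the Euclidean distance, over the 6 libraries, of log2(CPM + 0.5) minus the vector mean. Closest to Avil were Angptl6 (distance 0.51), Sh2d6 (0.56) and Gm19410 (0.63), and closest to Sh2d6 were Angptl6 (0.48), Avil (0.56) and Gm19410 (0.66). Angptl6, an angiopoietin-like gene, was at 1.83, 1.75 and 1.97 CPM in vector replicates and 41.5, 29.9 and 26.9 CPM in Bhlhe22 replicates. It therefore has the same order of Bhlhe22 libraries as Avil and Sh2d6, with replicate 1 highest, and it shares 16.8% of its exon length with Shfl on the opposite strand. Gm19410 had the opposite order, at 15.7, 18.4 and 22.7 CPM. Closest to Dclk1 were Smpd4 (0.093), Denn2b (0.11) and St3gal5 (0.11). These distances describe the same 6 libraries from which the calls were made and carry no test.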

How the data were processed

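RNA-seq of 6 RM-1 libraries, 3 with Bhlhe22 and 3 with blank vector lentivirus, was used. The deposited table gives raw counts per gene and FPKM, both made by the authors. The submitters' processing notes name the build GRCm38, edgeR, StringTie 1.3.4b, HISAT2 2.1.0 and CASAVA 1.8, without the step of each. No source used here gives the annotation release or says if counting was stranded. The deposited FPKM were used only for the length check and as an alternative.

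The counts were fitted with edgeR 4.0.16 in R 4.3.3: TMM scaling, filterByExpr (minimum count 10, total 15), robust quasi-likelihood test with no covariate, Benjamini-Hochberg adjustment over all tested genes and a threshold of 0.05. The scripts were tested on simulated data. Alternatives were DESeq2 1.42.0, limma 3.58.1 (voom, and on log2(FPKM + 1)), 3 other scalings, 2 other filters, no robust estimation, a replicate block, and leaving out each library. Exon lengths and overlaps came from GENCODE M21 (GRCm38), promoter windows from RefSeq (GRCm38.p6), and figures from matplotlib 3.10.9. Intervals for a count of 0 use 3 counts: 0.140 to 0.166 CPM for a vector library and 0.119 to 0.197 CPM for a Bhlhe22 library.

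The markers and all gene lists were chosen with earlier results of these data known. Of 168 listed symbols 167 were in the table, and Gm684, an older name of Colca2, was not. Named are every marker, up to 4 called genes of each list and genes in counts of 5 or fewer, genes within 100 kb of Avil and Sh2d6, and the 3 genes nearest in pattern to each called marker. Not-called genes named beside these (Hmx2, Txk, Mgst2 and others) were chosen after their values were seen. Some listed genes are not reported here.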

Additional observations from a re-analysis of the deposited data

How the results depend on the processing

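Leaving out a library in turn gave 715 to 2345 genes higher and 633 to 2337 lower over the whole table, against 1520 and 1361 with all libraries, the highest counts both without Bhlhe22 replicate 1. Over the same fits 0 to 1 markers were lower, 2 to 6 other tuft genes higher and 1 to 4 lower, 4 to 11 family and other cell type genes higher and 2 to 6 lower, and 1 to 9 neighbors higher and 0 to 6 lower. Family and other cell type genes called lower went from 5 to 3 with no count filter and to 3 with the replicate block. Neighbors called lower went from 4 to 2 with no filter and to 1 with the block. The cause of these shifts was not tested, except that fits without a library have fewer samples.

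Replicate numbers did not pair the samples: deviations of same-numbered libraries correlated at r = 0.045, 0.022 and 0.025. With the replicate number as a block 1086 genes were higher and 993 lower. Dclk1 was still called, and other tuft genes came to 5 higher and 3 lower. Among the latter Etv1, not called in the main fit, was gained (edgeR adjusted p = 0.033). Under the block the call was lost for Il4ra (edgeR adjusted p = 0.065), Fyb (0.056), Pla2g4a (0.12), Hdac1 (0.10), Sh2d3c (0.071) and Cyp27b1 (0.053). Dclk1 was called in all 10 other fits that kept every library, with adjusted p from 9.3e-04 to 0.036. Over all alternatives, 1644 values of single genes kept their side of the threshold, 111 lost the call and 26 gained it, and none changed sign while called. At this depth, members at 0 counts cannot be told from levels under the limits given for 3 counts.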
